A study of Mus musculus with 15 samples.

Results

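The comparison was between 2 inhibitors of the type I protein arginine methyltransferases, GSK3368715 and MS023, tested directly against each other in CT26 cells, a mouse colon tumor cell line of WT genotype. Its members were the 3 libraries of cells given GSK3368715 and the 3 libraries of cells given MS023, 6 of the 15 libraries of the series. The other libraries were 3 of WT CT26 cells given vehicle, which were used only to show which compound moved a gene, and 3 shControl and 3 shPrmt1 libraries of CT26 cells with a control or a Prmt1 knockdown, which formed a separate table. The knockdown came from a stably expressed shRNA induced by 3 days of doxycycline, and neither inhibitor was given. Whether the shControl cells also received doxycycline is not given in the sources used here. Both compounds were given at 6 µM for 48 h, so dose and time were matched. This dose and time are those of the published methods, since the labels name the compound alone. The labels do not say whether the 3 libraries of a group came from separate cultures, so the p-values measure the spread between these libraries, which may be technical. The 2 compounds were the single pair compared.

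Type I protein arginine methyltransferases place an asymmetric dimethyl mark on arginines of histones, splicing factors and other RNA-binding proteins, with S-adenosylmethionine as the methyl donor. PRMT1 carries out most of this activity in mammalian cells, and both compounds act on PRMT1 and on other type I enzymes. Loss of the mark alters transcription, splicing and the RNA-binding proteins themselves, and in tumor cells it can raise genes of the interferon response. The question for this comparison was whether the 2 compounds gave the same transcript response at the same dose.

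Of 34432 genes listed, 13014 reached 10 normalized counts in 3 or more of the 9 inhibitor-experiment libraries and were tested. A normalized count is the number of reads assigned to a gene divided by a size factor of the library. Reads on genes numbered 53597407 to 93697833 under MS023, 40119305 to 77648780 under GSK3368715, 48766758 to 73450043 under vehicle and 17284091 to 29233738 in the knockdown experiment. The libraries stood apart in 1 respect, the share of reads on genes of mitochondrial DNA, which was 1.07% in GSK3368715 replicate 3 and 1.37% in vehicle replicate 2 and between 1.99% and 2.76% in the other 7. Among cell type markers, Epcam, Cldn7, Thy1, C1qa and Cd3e were listed at 0 in all 9 libraries. The epithelial markers were thus not alike, since Epcam and Cldn7 were absent while Krt18 was at 872 to 1414 normalized counts. The summed level of the 8 epithelial markers, mostly Krt18, was 1350 to 1460 normalized counts under MS023, 1100 to 1240 under GSK3368715 and 892 to 1050 under vehicle. That of the 7 fibroblast markers, mostly Col1a2, was 110000 to 130000, 132000 to 141000 and 142000 to 144000. The 11 macrophage markers, mostly Cd14, summed to 1300 to 1380 under MS023, 1420 to 1560 under GSK3368715 and 1490 to 1740 under vehicle, and the sums of the 6 T cell markers (106 to 161) and the 5 endothelial markers (33.3 to 61.0) overlapped between the inhibitors. For the epithelial, fibroblast and macrophage sums the range under GSK3368715 lay between those of MS023 and vehicle, with an overlap with vehicle for macrophages, and their part in the differences was not tested. These sums follow their largest gene, and some members moved the other way. Pdgfrb, a fibroblast marker, was at 1609 to 2134 under vehicle, 2227 to 2684 under MS023 and 2711 to 3175 under GSK3368715. Mpeg1, a macrophage marker, was at 15.7 to 28.1 under vehicle, 64.4 to 75.6 under MS023 and 58.0 to 84.9 under GSK3368715. Col1a1 was lowest under MS023, as Col1a2 was.

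Few genes were called between the 2 compounds by the main fit, and at those MS023 gave the larger change. The number of calls does not give the number of genes that differ. By limma on log2(normalized count + 1), with Benjamini-Hochberg adjustment over the 13014 genes and a threshold of 0.05, 67 genes (0.515%) differed between GSK3368715 and MS023. Of these, 41 (0.315%) were higher under GSK3368715 and 26 (0.200%) were higher under MS023. All 67 had 3 GSK3368715 libraries that did not overlap the 3 MS023 libraries, as did 21.4% of all genes tested. The median size of the difference among the 67 was 0.45 log2 units, and the range was 0.25 to 1.46. An unadjusted p under 0.05 was reached by 1722 genes. On the whole reads recovered from the normalized counts, edgeR called 69 genes and DESeq2 365. With each library scaled to the same total, 22 genes were called higher under GSK3368715 and 25 higher under MS023. The count moved strongly with single libraries: it was 2 without MS023 replicate 1, 5 without MS023 replicate 2, 3 without MS023 replicate 3, 11, 10 and 7 without GSK3368715 replicates 1, 2 and 3, and 28 without vehicle replicate 3. It was 97 without vehicle replicate 1 and 115 without vehicle replicate 2. The call was kept in each of these leave-out fits by 2 genes, Mnd1 and Nxpe4. The sign of the difference could not change in them, since the inhibitor libraries did not overlap for any of the 67 genes.

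**Figure D1:**
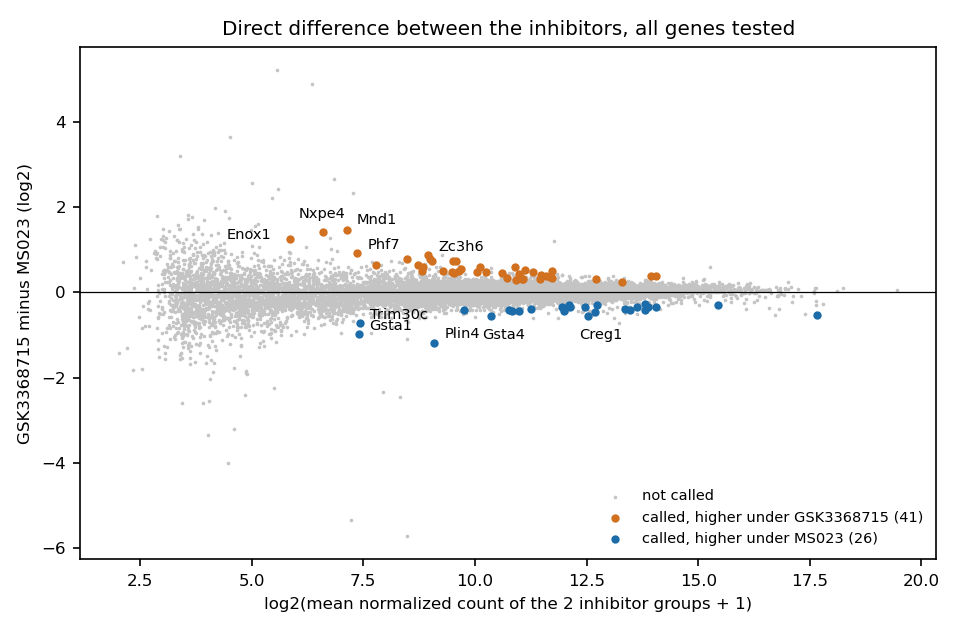
Each point is 1 of the 13014 genes tested, with its mean level over the inhibitor libraries on the horizontal axis and the log2 difference, GSK3368715 minus MS023, on the vertical axis. The 41 genes called higher under GSK3368715 (orange) and the 26 called higher under MS023 (blue) sit at moderate to high levels, while most of the widest differences, at low levels, were not called.

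Wide differences without a call came mainly from genes of low or uneven count. A log2 difference of at least 1 was measured for 163 genes, of which 4 were called (Mnd1, Nxpe4, Enox1 and Plin4). A mean under 50 normalized counts in both inhibitor groups was found for 137 of the 163, and 54 had at least 1 of the 6 inhibitor libraries listed at 0. An example, chosen after its values were seen, is Pi4ka, a phosphatidylinositol kinase, at 920, 294 and 314 normalized counts under MS023, at 0, 602 and 0 under GSK3368715 and at 0, 277 and 898 under vehicle. The groups overlapped, and the adjusted p was 0.39 by limma. Around the threshold, Ulk2 (0.34, adjusted p = 0.0487) and Bhlhe41 (-0.43, adjusted p = 0.0493) were just inside, and Jun (0.32) and Hmox1 (-0.44), both at an adjusted p of 0.0521 in limma, were just outside.

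Set against vehicle, the genes that separated the compounds were genes that MS023 moved. MS023 changed 3625 genes against vehicle (27.9% of those tested), 1784 higher (13.7%) and 1841 lower (14.1%), and GSK3368715 changed 1254 (9.64%), 672 higher (5.16%) and 582 lower (4.47%), by the same limma fit. Both contrasts share the vehicle libraries with each other, and each shares the libraries of 1 compound with the direct comparison. All 67 genes were called under MS023 against vehicle. In the same direction, 41 of them were also called under GSK3368715, and 26 were called under MS023 alone. None was called under GSK3368715 alone or in opposite directions under the 2 compounds. The GSK3368715 mean lay between the vehicle mean and the MS023 mean for 62 of the 67 genes, and for 56 every GSK3368715 library lay between all vehicle and all MS023 libraries. For the remaining 5 (Hdac5, Slc6a8, Tmem86a, Serac1 and Bhlhe41) the vehicle mean lay between the inhibitor means, and none of the 5 was called under GSK3368715 against vehicle. Synj2 overlaps Serac1 on the opposite strand, shares sequence with it and holds 654% of its level. Their summed counts differed by -0.08, so the call of Serac1 is uncertain. Counts of these orders were not made over all genes tested. The 67 genes were chosen by the difference between the compounds, which is part of these orders, so the counts only describe them.

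The 41 genes higher under GSK3368715 were lower than vehicle under MS023, with a median log2 change against vehicle of -0.86 under MS023 and -0.39 under GSK3368715. Of these, 27 were called lower under both compounds and 14 under MS023 alone. The 26 genes higher under MS023 were raised by it, with a median log2 change against vehicle of 0.64 under MS023 and 0.27 under GSK3368715, and 14 of them were called under both compounds and 12 under MS023 alone.

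**Figure D2:**
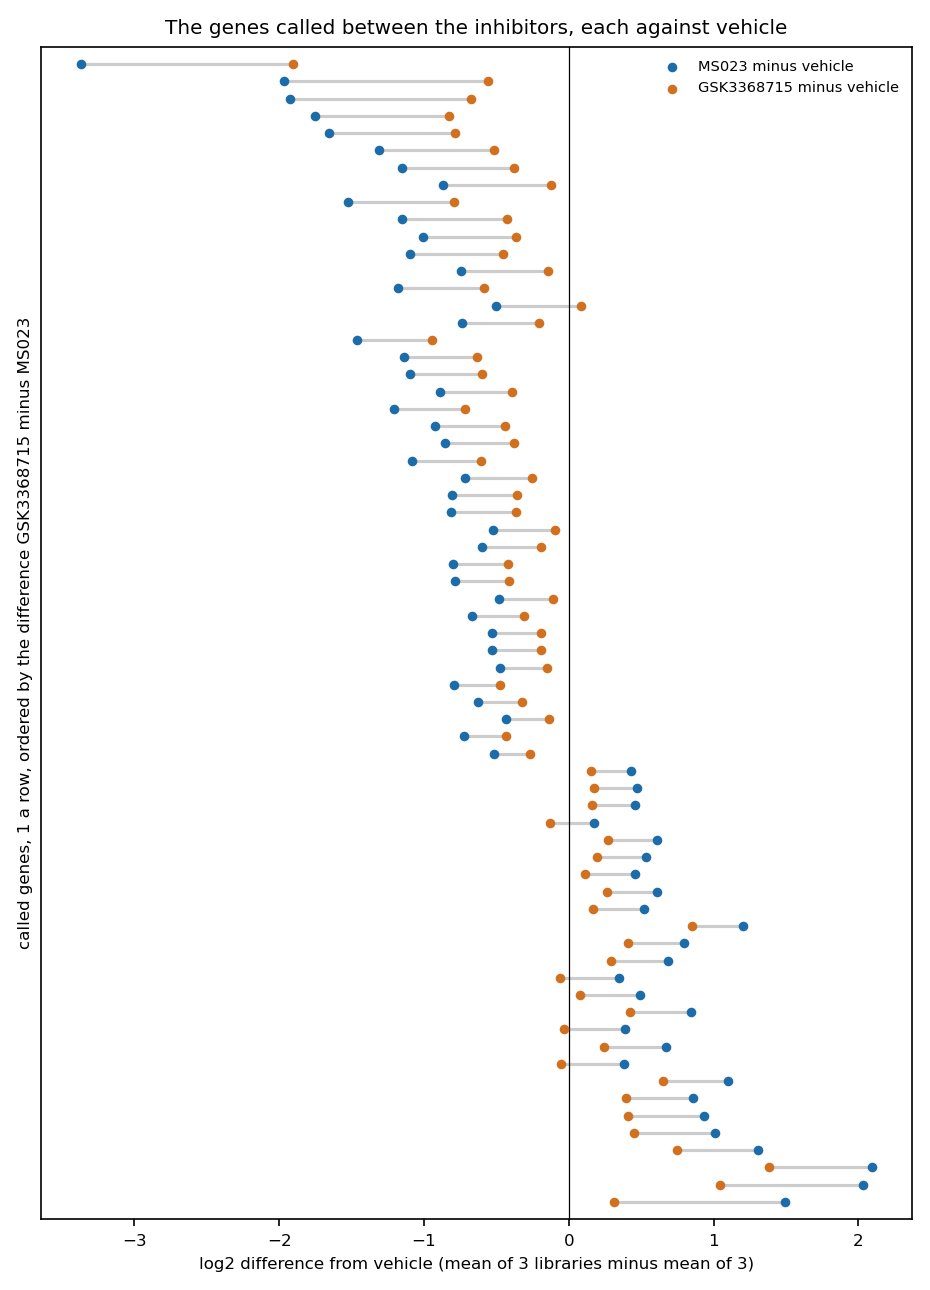
Each row is 1 of the 67 genes that differed between the compounds, ordered by the difference with the widest toward GSK3368715 at the top, and its points give the log2 change against the same 3 vehicle libraries under MS023 (blue) and GSK3368715 (orange) on the horizontal axis. The orange points lie nearer to 0 than the blue ones, with medians of -0.39 against -0.86 for the 41 genes higher under GSK3368715 and 0.27 against 0.64 for the 26 higher under MS023.

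Mnd1, whose product works with HOP2 in meiotic recombination, showed the widest called difference. The gene lies on the minus strand at chr3:84087933-84155786 (GRCm38/mm10). Its level was 798, 775 and 730 normalized counts under vehicle, 66.2, 78.8 and 75.6 under MS023 and 197, 197 and 219 under GSK3368715. The 3 groups did not overlap, and both compounds lowered the gene. The GSK3368715 mean was 2.77 times the MS023 mean, a log2 difference of 1.46 ± 0.11 (SE, 95% interval 1.22 to 1.70, adjusted p = 0.00065 by limma). Against vehicle the log2 change was -3.37 under MS023 and -1.91 under GSK3368715. Mnd1 was the 1 called member among 79 tested genes of the replication list and among 13 tested meiosis and germline genes, whose medians were 0.02 and 0.07.

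Nxpe4 (plus strand, chr9:48162023-48400025) was at 207, 206 and 209 normalized counts under vehicle, 46.2, 55.8 and 55.2 under MS023 and 132, 144 and 146 under GSK3368715. All 3 groups were separate and the vehicle values were nearly equal. The GSK3368715 mean was 2.68 times the MS023 mean (log2 difference 1.41, 95% interval 1.12 to 1.70, limma adjusted p = 0.0031), and the change against vehicle was -1.97 under MS023 and -0.56 under GSK3368715. Enox1, a cell-surface hydroquinone and NADH oxidase, was at 134, 126 and 119 under vehicle, 36.2, 31.7 and 30.0 under MS023 and 65.6, 104 and 71.4 under GSK3368715. Its GSK3368715 libraries were more spread than the others, the difference was 1.25 (0.81 to 1.69, limma adjusted p = 0.029), and the change of -0.68 under GSK3368715 against vehicle did not pass the test (adjusted p = 0.057).

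The other genes with the widest differences toward GSK3368715 followed the same order of groups. Phf7, a histone ubiquitin ligase of the male germline, was at 90.6, 121 and 126 normalized counts under MS023, 223, 198 and 217 under GSK3368715 and 368 to 387 under vehicle, a difference of 0.92 between the compounds (limma adjusted p = 0.021). Nlrx1, a mitochondrial member of the NLR family, was at 246, 322 and 226 under MS023 and 444, 465 and 448 under GSK3368715, against 550 to 704 under vehicle (0.79, adjusted p = 0.040 by limma). Akap7, which anchors protein kinase A, was at 356, 384 and 387 under MS023 and 609, 749 and 578 under GSK3368715, against 787 to 896 under vehicle (0.77). These 3 genes had no overlap between any of the groups. Slc14a1, a urea transporter, was at 347, 448 and 387 under MS023 but at 666, 609 and 697 under GSK3368715, which overlapped the vehicle values of 676, 776 and 698. Its difference between the compounds was 0.74 (adjusted p = 0.021 by limma), while its change of -0.12 under GSK3368715 against vehicle did not pass the test. Xkr5, of the XK-related membrane protein family, differed by 0.73, Btbd2 by 0.73 and Zc3h6 by 0.87. Reads of Zc3h6 cannot be told from those of Gm10762, which overlaps it on the opposite strand, since the use of strand in counting is not given in the sources used here, and the summed counts differed by 0.79.

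**Figure D3:**
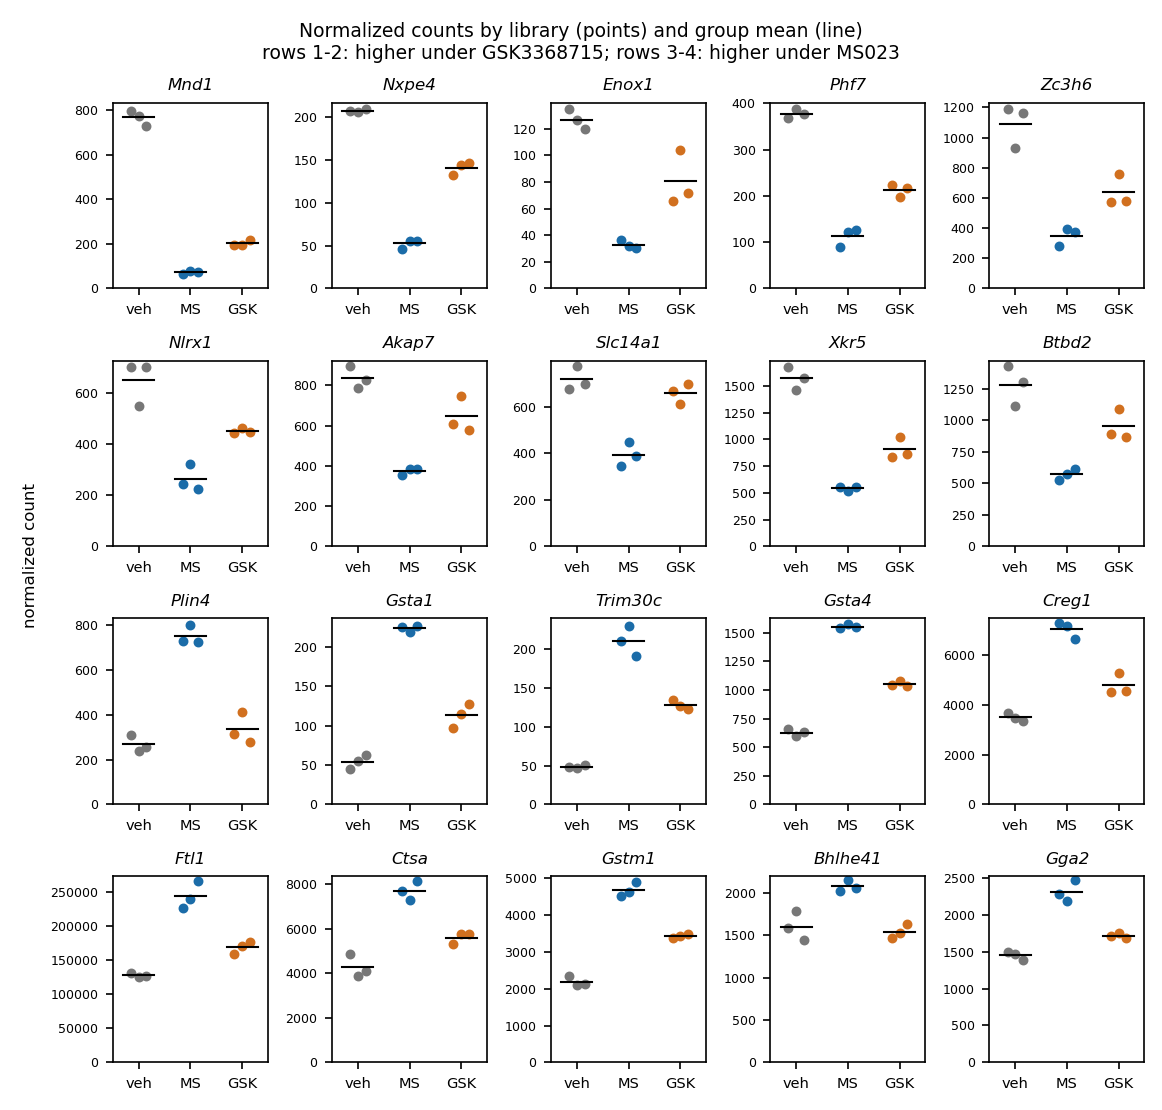
Points are the normalized counts (linear vertical axes that start at 0, lines for the group means) of the 3 vehicle, 3 MS023 and 3 GSK3368715 libraries for the 10 called genes with the widest difference in each direction. For each gene the GSK3368715 points are clear of the MS023 points, and for most they lie between the MS023 and the vehicle points, while Bhlhe41, Slc14a1 and Plin4 have GSK3368715 points among the vehicle points.

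Plin4, a coat protein of lipid droplets, showed the widest called difference toward MS023. The gene lies on the minus strand at chr17:56100591-56109803 (GRCm38/mm10). It was at 310, 239 and 256 normalized counts under vehicle, 729, 802 and 724 under MS023 and 314, 415 and 280 under GSK3368715. Only the MS023 libraries stood clear, and the GSK3368715 values overlapped those of vehicle. The log2 difference, GSK3368715 minus MS023, was -1.18 (95% interval -1.50 to -0.85, limma adjusted p = 0.015), with a change of 1.49 under MS023 against vehicle and of 0.31 under GSK3368715, which did not pass the test. Hdgfl2 overlaps Plin4 on the opposite strand and differed by -0.03.

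Genes of the NRF2 antioxidant response held more of the calls toward MS023 than any other list. NRF2 is the transcription factor that raises glutathione, thioredoxin and iron-storage genes under oxidative or electrophilic stress, and KEAP1 is the adaptor that targets it for degradation. Of 37 tested members of the list, 7 were called higher under MS023 and 1 higher under GSK3368715, a share of 21.6% beside the 0.515% of all genes. The median difference was -0.17, against 0.00 over all genes tested, and 30 of the 37 were lower under GSK3368715 than under MS023. Against vehicle, MS023 raised 23 and lowered 2 of them, and GSK3368715 raised 11 and lowered none. Over all genes tested, MS023 raised 13.7% and lowered 14.1%, and GSK3368715 raised 5.16% and lowered 4.47%. The members' median log2 level relative to the vehicle mean was 0.38, 0.31 and 0.32 in the MS023 libraries and 0.11, 0.17 and 0.16 in the GSK3368715 libraries, so the libraries of the 2 compounds did not overlap. Leaving out any 1 MS023 library ended all of the calls toward MS023 in this list, in the sterol list and in the lysosome list, while the medians of the 3 lists kept their sign. Leaving out any 1 GSK3368715 library left 1 such call in the NRF2 list, 0 or 1 in the sterol list and 0 in the lysosome list. The lysosome list also had 0 without vehicle replicate 3.

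The 7 members called toward MS023 were enzymes of glutathione and thioredoxin metabolism and ferritin, and the member called the other way was Keap1. Gsta4, a glutathione S-transferase, was at 658, 596 and 628 normalized counts under vehicle, 1538, 1575 and 1549 under MS023 and 1044, 1075 and 1036 under GSK3368715. These values were tightly grouped and separate in each group, and the difference of -0.56 had a 95% interval of -0.70 to -0.42 (limma adjusted p = 0.0095). Gsta1, of the same family (plus strand, chr9:78230656-78242684), was at 45.2, 55.3 and 62.7 under vehicle, 226, 219 and 227 under MS023 and 96.8, 115 and 128 under GSK3368715, a difference of -0.99 (-1.34 to -0.63, adjusted p = 0.032 by limma). Gsta1 shares near-identical sequence with Gm3776, at 30.0, 30.6 and 23.2 under MS023 and 2.3, 0 and 5.9 under GSK3368715, and the summed counts of Gsta1 and its copies differed by -1.11. Gstm1 was at 4506, 4619 and 4899 under MS023 and 3364, 3433 and 3484 under GSK3368715, against 2086 to 2350 under vehicle (-0.45).

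Ftl1, the ferritin light chain, was at 226890, 239600 and 266190 normalized counts under MS023 and 159930, 171550 and 177480 under GSK3368715, against 124890 to 131980 under vehicle. The 3 groups were separate, and the difference was -0.52 (limma adjusted p = 0.017). Its pseudogene copies held 0.668% of its level. Txnrd1, the cytosolic thioredoxin reductase, was at 16375, 15474 and 15707 under MS023 and 13262, 12759 and 13136 under GSK3368715, against 11708 to 11792 under vehicle, a difference of -0.28. Gstp1 (-0.34) and Gclc, the catalytic subunit of glutamate-cysteine ligase (-0.30), were also called toward MS023. Keap1 differed the other way by 0.30 (adjusted p = 0.0478 by limma), with a mean of 2523 normalized counts under MS023, 3106 under GSK3368715 and 3407 under vehicle. Nqo1, a quinone reductase and a common readout of NRF2, was at 259, 223 and 262 under MS023 and 168, 201 and 164 under GSK3368715. The groups did not overlap, but the difference of -0.48 did not pass the test (adjusted p = 0.15 by limma). In the knockdown Nqo1 had a change of -0.39 that did not pass the test (adjusted p = 0.35 by limma). Not every gene linked to NRF2 went this way. Slc7a11 was at 2019, 2613 and 2545 under MS023 and 2342, 2994 and 2891 under GSK3368715, which overlapped (0.20, adjusted p = 0.54 by limma). Its change under MS023 against vehicle was -0.57.

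The promoter windows of up to 4 called members with the lowest p in each of the NRF2, sterol and lysosome lists, 11 genes in all, were searched, on both strands of the 250 bases before each start in the RefSeq table of GRCm38.p6, for CACGTG (the E-box, palindromic and part of the element bound by TFEB) and for TGACNNNGC (the core of the antioxidant response element). Of the 11 genes 7 were in the table, and 4 of them held a motif in a window. Gsta4, Fdft1 and Fdps were among those not matched. The 3 stretches below are shown because they belong to called genes of 1 list each and hold a match outside the annotated exons of the gene. They were chosen after the values were seen, are written 5′ to 3′ on the strand of the gene, and carry the match in capitals. In Txnrd1 the match is the antioxidant response element core read on the opposite strand, 92 to 84 bases before the second of 3 starts, in Insig1 an E-box 101 to 96 bases before the start and in Ctsd an E-box 245 to 240 bases before the start. The Ctsd window also held matches past the printed stretch. They were an E-box 98 to 93 bases before the start and antioxidant response element cores 62 to 54 and 47 to 39 bases before it. The sterol regulatory element was not searched for.
Txnrd1, chr10:82858956-82859178, plus strand: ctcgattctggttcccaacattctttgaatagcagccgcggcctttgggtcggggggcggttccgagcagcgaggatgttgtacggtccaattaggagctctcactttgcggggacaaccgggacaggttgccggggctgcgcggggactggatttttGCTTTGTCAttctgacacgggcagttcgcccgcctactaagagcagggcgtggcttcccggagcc
Insig1, chr5:28071162-28071362, plus strand: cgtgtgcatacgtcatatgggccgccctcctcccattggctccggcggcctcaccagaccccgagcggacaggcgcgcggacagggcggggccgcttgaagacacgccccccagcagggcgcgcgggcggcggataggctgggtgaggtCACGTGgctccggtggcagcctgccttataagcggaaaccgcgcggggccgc
Ctsd, chr7:142388039-142388077, minus strand: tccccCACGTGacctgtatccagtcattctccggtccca

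The matches describe letters and not binding. The E-box was in the windows of 9.61% of the 9699 tested genes with a promoter in the table, in 5 of 20 called genes higher under MS023 (25%) and in 4 of 35 higher under GSK3368715 (11.4%). The antioxidant response element core was in 13.7% of tested genes, in 4 of the 20 (20%) and in 6 of the 35 (17.1%). Over all 32851 windows used the shares were 6.02% and 10.2%. Windows of chromosome 18, which holds the called gene Slc14a1, were left out of all these shares. These counts are few, and no test was made on them.

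Genes of sterol synthesis and uptake were raised by MS023 and little by GSK3368715. These enzymes make cholesterol through mevalonate and squalene and are transcribed under SREBP, which INSIG1 holds in the endoplasmic reticulum when sterols are abundant. Of 32 tested members 3 were called higher under MS023 and none higher under GSK3368715 (9.38%, beside 0.515% of all genes). The difference was negative for 31 of the 32, with a median of -0.25. MS023 raised 20 against vehicle and GSK3368715 raised 3, and neither lowered any. Over all genes tested, MS023 raised 13.7% and GSK3368715 5.16%. The members' median log2 level relative to the vehicle mean was 0.42, 0.35 and 0.42 in the MS023 libraries and 0.08, 0.07 and 0.19 in the GSK3368715 libraries, while that of the vehicle libraries spread from -0.06 to 0.09. The MS023 libraries were thus apart from both other groups, and GSK3368715 replicates 1 and 2 were within the range of vehicle.

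Insig1, whose promoter stretch is shown above, was at 7270, 7114 and 7179 normalized counts under vehicle, 13030, 13125 and 12613 under MS023 and 9311, 10596 and 9107 under GSK3368715. It differed by -0.42 between the compounds (95% interval -0.55 to -0.29, limma adjusted p = 0.020) and was called higher under both against vehicle. Fdps, which makes farnesyl diphosphate, was at 16345, 16120 and 16782 under MS023 and 12054, 11626 and 13252 under GSK3368715, the latter overlapping the vehicle values of 11426, 12287 and 11283. Its difference was also -0.42. Fdft1, squalene synthase, was at 6472, 6064 and 6379 under MS023 and 4804, 5026 and 5016 under GSK3368715, against 4385 to 4414 under vehicle (-0.35). Ctsb overlaps Fdft1 on the opposite strand and differed by -0.16, and the summed counts differed by -0.19. Other pathway members had differences of like size that missed the threshold. Hmgcs1 differed by -0.50 (95% interval -0.83 to -0.18), Mvd by -0.48 (-0.70 to -0.25), Idi1 by -0.45 (-0.80 to -0.11) and Lss by -0.45 (-0.70 to -0.21).

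Lysosomal genes showed calls in both directions. Of 56 tested members of the lysosome and TFEB list, 4 were called higher under MS023 and 1 higher under GSK3368715 (8.93%, beside 0.515% of all genes). The median difference was -0.15 and 50 members were lower under GSK3368715 than under MS023. MS023 raised 24 and lowered 4 against vehicle, and GSK3368715 raised 2 and lowered 3. Over all genes tested, MS023 raised 13.7% and lowered 14.1%, and GSK3368715 raised 5.16% and lowered 4.47%. The GSK3368715 counts of this list were near those shares. The members' median level relative to vehicle was 0.18, 0.18 and 0.21 log2 units in the MS023 libraries and 0.01, 0.13 and 0.01 in the GSK3368715 libraries, and the vehicle libraries ran from -0.06 to 0.08.

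Arsb, arylsulfatase B, which removes sulfate from dermatan and chondroitin sulfate, was the member higher under GSK3368715. It was at 5985, 6203 and 6422 normalized counts under vehicle, 2710, 2812 and 2932 under MS023 and 3892, 4027 and 4078 under GSK3368715. All groups were separate, both compounds lowered the gene, and the difference of 0.51 (95% interval 0.39 to 0.62) had an adjusted p of 0.0058 by limma. Ctsd, the protease cathepsin D, was at 16689, 16493 and 17564 under MS023 and 12568, 13958 and 13587 under GSK3368715, against 11323 to 12315 under vehicle (-0.34). Ctsa, the carboxypeptidase cathepsin A, was at 7674, 7300 and 8124 under MS023 and 5289, 5738 and 5769 under GSK3368715, against 3882 to 4840 under vehicle (-0.46). The lysosomal membrane protein gene Lamp1 differed by -0.30. Gpnmb, a lysosomal glycoprotein gene, differed by -0.61 (95% interval -0.95 to -0.28) without passing the test (adjusted p = 0.12 by limma).

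**Figure D4:**
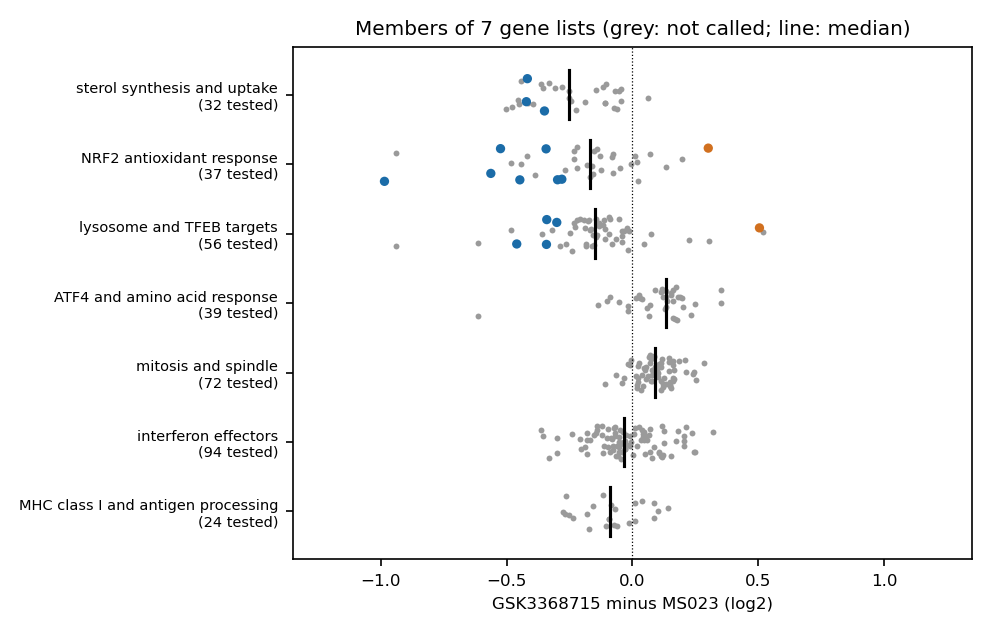
Each point is a tested member of 1 of 7 gene lists, with its log2 difference, GSK3368715 minus MS023, on the horizontal axis, the list's median as a line, and members called toward MS023 in blue and toward GSK3368715 in orange. The sterol (median -0.25), NRF2 (-0.17) and lysosome (-0.15) members lie mostly below 0, the interferon effectors (-0.03) and MHC class I genes (-0.09) lie nearer to 0, and the mitosis (0.09) and ATF4 (0.13) members lie mostly above it.

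The remaining named genes higher under MS023 belonged to none of the 40 lists. Creg1, a lysosomal glycoprotein, was at 7263, 7150 and 6655 normalized counts under MS023 and 4504, 5283 and 4561 under GSK3368715, against 3329 to 3679 under vehicle (-0.56, limma adjusted p = 0.015). Trim30c, of the TRIM ubiquitin ligase family, was at 211, 231 and 192 under MS023 and 134, 127 and 123 under GSK3368715, against 47.0 to 50.7 under vehicle (-0.71). Gga2, a clathrin adaptor of the Golgi, differed by -0.43 and was separate in all 3 groups. Bhlhe41, a repressor of the circadian clock, was at 2026, 2159 and 2063 under MS023 and 1464, 1528 and 1636 under GSK3368715, while vehicle had 1589, 1784 and 1441. The GSK3368715 values of Bhlhe41 thus lay among those of vehicle, and its difference was -0.43. Of the 67 called genes, 37 fell outside the naming rule. The 28 higher under GSK3368715 differed by 0.25 to 0.64, and the 9 higher under MS023 by 0.30 to 0.42.

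Some calls stood alone in their list. Tnfaip3, the NF-kB feedback inhibitor A20, was at 1669, 1696 and 1832 normalized counts under MS023 and 2237, 2428 and 2326 under GSK3368715, which overlapped the 2320 to 2659 of vehicle (0.43, adjusted p = 0.029 by limma). It was the 1 call among 28 tested NF-kB genes, whose median was -0.07. Ccn1, a matricellular protein gene induced through YAP, was at 6102, 5896 and 5971 under MS023 and 7255, 7788 and 7192 under GSK3368715, against 8802 to 9594 under vehicle (0.31). It was the 1 call among 25 tested YAP targets (median 0.09) and 38 genes of the TGF-beta and BMP list (median -0.01). Rpl5, a ribosomal protein gene, was called toward MS023 at -0.35, but its near-identical copies, 7 of them listed, hold 573% of its own level and the summed counts differed by 0.08, so this call is uncertain. It was the 1 call among 91 tested cytosolic ribosomal protein genes.

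Interferon effector genes, which both compounds raised, gave no call between them. Of 94 tested, none was called by limma, edgeR or DESeq2, 6 had an unadjusted p under 0.05 in limma, and the median difference was -0.03. Against vehicle, 76 were higher and 3 lower under MS023, and 70 were higher and 1 lower under GSK3368715. Over all genes tested these shares were 13.7% and 14.1% under MS023 and 5.16% and 4.47% under GSK3368715. The 95% interval of the difference lay within 0.5 log2 units of 0 for 77 of the 94, beside 73.5% of all genes. The members' median level relative to vehicle was 0.54, 0.53 and 0.59 log2 units in the MS023 libraries and 0.49, 0.62 and 0.43 in the GSK3368715 libraries, which overlapped. The median difference was 0.03 without GSK3368715 replicate 3, -0.09 without GSK3368715 replicate 2 and -0.01 without MS023 replicate 3. None of the 24 tested genes of MHC class I and antigen processing was called by limma (median -0.09), with 6 at an unadjusted p under 0.05, all higher under MS023, and with 21 intervals within 0.5. edgeR called none of the 24 and DESeq2 called 1. None of 25 genes of DNA and RNA sensing (median 0.03) and of 11 PRMT family genes (median 0.06) was called by any of the 3 tools, with 2 and 3 at an unadjusted p under 0.05 in limma. These statements cover the listed members only. The lists were written by hand, and the called genes Nlrx1 and Trim30c are in none of them.

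The 13 genes that the study followed by RT-qPCR, chosen by it on these responses, gave no call between the compounds by limma or edgeR and 1 by DESeq2, with 3 at an unadjusted p under 0.05 and a median of -0.10. The median ran from -0.23 without GSK3368715 replicate 2 to -0.04 without MS023 replicate 3. Each compound raised 11 of them against vehicle. Cxcl10, a chemokine that attracts T cells, was at 1982, 1765 and 1807 normalized counts under vehicle, 3401, 2852 and 3200 under MS023 and 4022, 3788 and 3962 under GSK3368715. The change was wider under GSK3368715 and the groups did not overlap, but the difference of 0.32 (95% interval 0.16 to 0.48) did not pass the test (limma adjusted p = 0.097, and 0.00757 by DESeq2). Cxcl11 differed by 0.10 (-0.49 to 0.69), Ifnb1 by 0.22 (-0.58 to 1.02), Ccl5 by -0.09 (-0.33 to 0.14), Rsad2 by 0.03 (-0.22 to 0.27) and Irf7 by -0.26 (-0.58 to 0.06). The intervals of Cxcl11 and Ifnb1 are too wide to show likeness. Among the abundant effectors, Ifi44 differed by 0.02 (-0.34 to 0.38), Rnf213 by 0.21 (-0.06 to 0.47) and H2-D1, a classical class I heavy chain, by -0.17 (-0.35 to -0.00). Prmt1 itself was at 14063 to 16057 in the 6 inhibitor libraries and differed by 0.06 (-0.06 to 0.19).

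Over all genes, the 95% interval of the difference lay within 0.5 log2 units of 0 for 9567 of 13014 genes (73.5%) and within 1 unit for 11567 (88.9%), with a median width of 0.38. Among the 1177 genes called against vehicle under both compounds in the same direction, 41 (3.48%) differed between the compounds, and the interval lay within 0.5 for 892 (75.8%) and within 1 for 1133 (96.3%). No gene was called in opposite directions under the 2 compounds. Of 2448 genes called under MS023 alone, 26 (1.06%) differed directly, 868 had an unadjusted p under 0.05, 1175 had inhibitor libraries that did not overlap, and 1830 (74.8%) had an interval within 0.5. Of all 13014 genes, 1722 had such a p and 2782 (21.4%) had no overlap. These 2448 genes, and the 77 below, were chosen with the same inhibitor libraries, so such separation is partly built in. Of 77 called under GSK3368715 alone, none differed directly by limma or edgeR and 5 did by DESeq2, 27 had an unadjusted p under 0.05, and 49 (63.6%) had an interval within 0.5. An interval within 0.5 does not show likeness, since the median called difference was 0.45. Among the genes that both moved most, Tspoap1 was at 1023, 922 and 898 under MS023 and 763, 409 and 370 under GSK3368715, against 115 to 176 under vehicle. The difference of -0.96 (-1.50 to -0.42) did not pass the test, with an adjusted p of 0.13 by limma that became 0.0321 without GSK3368715 replicate 1, while DESeq2 gave 0.0107. Beside Mnd1, the others of this kind were called by none of the 3 tools. Plxnc1 differed by -0.01 (-0.88 to 0.86), Poln by -0.18 (-0.49 to 0.13) and AA986860 by 0.62 (0.19 to 1.04). Bmp6 differed by -0.33 (-1.01 to 0.35), and Txndc5 overlaps it on the opposite strand at a far higher level.

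Of the 40 gene lists, 9 held a called gene and 31 held none. The 2 most abundant tested members of each of these 31 lists, 60 distinct genes, differed by -0.31 (mt-Atp6) to 0.43 (H2ac24), and the interval lay within 0.5 for 56 of them. ATF4 and amino acid response genes had a median difference of 0.13 over 39 members, of which 32 were higher under GSK3368715. The median was 0.20 without GSK3368715 replicate 1 and 0.07 without GSK3368715 replicate 2. Against vehicle, MS023 lowered 19 and raised 1 of them, and GSK3368715 changed none at the threshold of the limma fit. Over all genes tested, MS023 lowered 14.1% and raised 13.7%, and GSK3368715 lowered 4.47% and raised 5.16%. For mitosis and spindle genes the median was 0.09, with 65 of 72 higher under GSK3368715, and MS023 lowered 21 and raised 2 while GSK3368715 lowered 5. Their median level relative to vehicle was -0.13, -0.12 and -0.12 in the MS023 libraries and -0.02, -0.02 and -0.05 in the GSK3368715 libraries, which were thus separate by a small amount. Ribosome biogenesis genes had a median of 0.07 over 74 members, 60 of them higher under GSK3368715. Histone genes had a median of 0.46 over 49 members and genes of mitochondrial DNA one of -0.31 over 13, and both moved with single libraries. The histone members' median level relative to vehicle was 0.43, 0.88 and -0.03 log2 units in the GSK3368715 libraries and 0.04, -0.14 and 0.11 in the MS023 libraries, which overlapped. The histone median difference was 0.15 without GSK3368715 replicate 2 and 0.67 without replicate 3. The mitochondrial median was -0.56 without GSK3368715 replicate 1 and 0.05 without GSK3368715 replicate 3, the library with the lowest mitochondrial share.

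The Prmt1 knockdown gave an independent readout, with its own controls, of the genes that separated the compounds. Prmt1 fell from 5601, 5717 and 5620 normalized counts under shControl to 669, 761 and 683 under shPrmt1, a log2 change of -3.0. Of 11485 genes tested there, 1684 changed by limma (14.7%), 861 higher (7.50%) and 823 lower (7.17%). Of the 41 genes higher under GSK3368715 than under MS023, 25 were called lower in the knockdown and 1 higher, with a median change of -0.51. Of the 26 genes higher under MS023, 15 were called higher and 5 lower, with a median of 0.34. Beside this, of all 1785 genes lowered by MS023 and measured in the knockdown 24% were called lower there, and of all 1627 raised by MS023 27.1% were called higher, while the shares for the genes called directly were 61.0% and 57.7%. No test was made of these shares, and the genes called directly also had larger changes under MS023.

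Mnd1 fell from 245, 219 and 226 to 98.3, 84.8 and 75.5 normalized counts in the knockdown, a log2 change of -1.41 (adjusted p = 0.00048 by limma). Gsta1 rose from 17.6, 23.04 and 26.5 to 117, 137 and 121 (2.44), Gsta4 by 1.46 and Plin4 by 1.25, and Arsb fell by 0.49. Each of these moved in the direction that MS023 gave. Under GSK3368715 each also changed in that direction against vehicle, with the change of Plin4 not passing the test. Nxpe4 had a change of -0.59 in the knockdown that did not pass the test (adjusted p = 0.16 by limma). Ccn1, lowered by MS023, was higher in the knockdown by 0.32, and Bhlhe41, raised by MS023, was lower by 0.52. The sterol list did not follow MS023 in the knockdown: of 31 members tested there 2 were called higher and 8 lower, with a median of -0.12, and Fdps fell by 0.37 and Fdft1 by 0.30 while Insig1 had 0.13 and did not pass the test. In the NRF2 list 7 of 35 were called higher and 2 lower (median 0.10), and in the lysosome list 19 of 55 higher and 3 lower (median 0.19), beside the 7.50% higher and 7.17% lower of all genes tested in the knockdown.

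**Figure D5:**
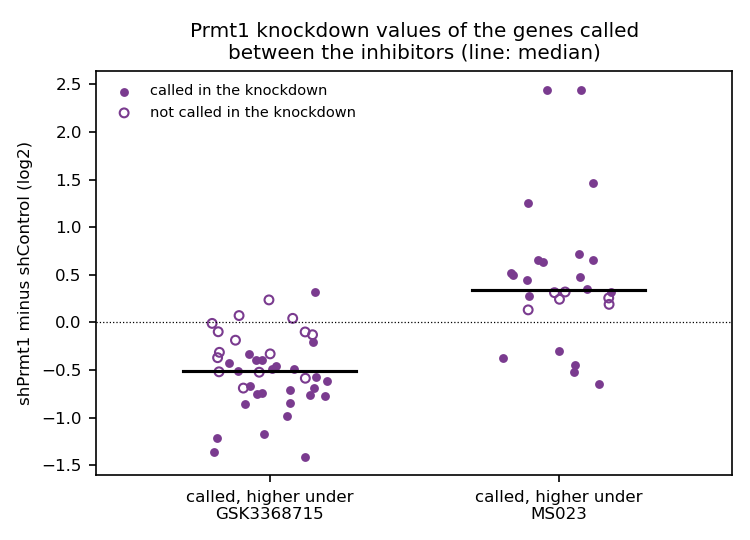
Each point is 1 of the 67 genes that differed between the compounds, grouped by the compound under which it was higher, with its log2 change, shPrmt1 minus shControl, on the vertical axis, filled where called in the knockdown, and lines for the group medians of -0.51 and 0.34. Of the 41 genes higher under GSK3368715, 37 are below 0 in the knockdown, and of the 26 higher under MS023, 21 are above 0.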

How the data were processed

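RNA was measured by paired-end mRNA sequencing (KAPA mRNA HyperPrep libraries, Illumina NextSeq) in 9 libraries of the inhibitor experiment and 6 of the knockdown experiment. The authors quantified reads with Salmon 1.4.0 (version from the submitters' processing notes) on mm10 and deposited, per gene and library, a normalized signal, the gene count divided by a DESeq2 size factor, in a table for each experiment. The annotation release is not given in the sources used here. All values above 0 were whole multiples of a constant per library (100.0% whole within 0.01), so whole reads were recovered for the edgeR and DESeq2 alternatives. The 3 deposited tables of the authors' own comparisons, with fold changes and p-values, were not used.

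Genes that reached 10 normalized counts in 3 or more libraries were tested on log2(normalized count + 1) with limma 3.58.1 in R 4.3.3 (trended empirical Bayes, two-sided), with the 3 groups of the inhibitor experiment in 1 fit and Benjamini-Hochberg adjustment over all genes tested, and called at an adjusted p under 0.05. Fold changes on this scale are understated for low genes. Normalized counts of different genes are not corrected for length and were not compared with each other. The fit was tested on simulated data. edgeR 4.0.16 (quasi-likelihood, TMM) and DESeq2 1.42.0 were alternatives, beside other pseudocounts (0.5 and 5), filters, scalings, no variance trend, only the inhibitor libraries, a replicate block, a fold threshold and leaving out each library.

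Named genes were the 10 widest called differences in each direction (mean of at least 50 in the higher group, no overlap), up to 4 called members of each list, members of high level in lists with no call (given for some lists and as a range over the others), the 13 RT-qPCR genes, Prmt1 and genes changed most by both compounds. The genes, the 40 lists and the comparison were chosen with earlier results of these data known. Positions were taken from GENCODE vM21 and promoters from RefSeq GRCm38.p6, and copies were annotated transcripts with at least 95% identity over at least 200 bases. Promoters were to be printed where 25% of a list was called in 1 direction, which no list reached, so those shown were chosen after the values were seen. Some members of the lists are not reported here.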

Additional observations from a re-analysis of the deposited data

How the results depend on the processing

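The count of 67 genes (41 higher under GSK3368715, 26 higher under MS023) moved with the fit. It was 38 (24 and 14) with no filter, 8 (4 and 4) without the variance trend, 365 (210 and 155) by DESeq2 and 4 (3 and 1) with a log2 difference of at least 1. The split changed to 26 and 22 with each library scaled to the same upper quartile, 22 and 25 with the same total, and 49 and 51 in a fit of only the 6 inhibitor libraries. Leaving out 1 library at a time gave 2 to 115 genes, 2 to 60 higher under GSK3368715 and 0 to 55 higher under MS023. Both pseudocounts, a minimum of 50 and edgeR gave 67 to 70. All 67 genes were also called by DESeq2 and 66 by edgeR. The labels do not say whether same-numbered libraries were handled together. Their deviations had correlations of -0.102 to 0.113, and 2 of 9 libraries, MS023 replicate 2 and GSK3368715 replicate 2, had their highest with their own number. Such low values do not settle whether the libraries were paired. With the number as a replicate block, 4 genes were called, 4 higher under GSK3368715 and 0 higher under MS023, while a replicate block with only the 6 inhibitor libraries, chosen after seeing the data, gave 156. Against vehicle, leaving out 1 library gave 2406 to 3723 genes under MS023 and 586 to 1269 under GSK3368715. The cause of these shifts was not tested.

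The sign of the difference was kept by all 67 genes under every alternative. Their inhibitor libraries did not overlap, so leaving out a library could not change it, and these kept signs are no separate evidence. It changed for uncalled genes near 0. Ifi44 had 0.00 with the same total, Btg1 0.00 with the same upper quartile and -0.01 with the same total, and Ifit3 0.00 and -0.01. With 1 library left out at a time, Btg1 ran from -0.06 to 0.05, Calr from -0.10 to 0.00, Cxcl11 from -0.07 to 0.19, Ifi44 from -0.15 to 0.10, Ifit3 from -0.11 to 0.11, Ifnb1 from -0.08 to 0.45, Plxnc1 from -0.39 to 0.40 and Rsad2 from -0.06 to 0.09. The medians of the NRF2 (-0.22 to -0.15), sterol (-0.30 to -0.22) and lysosome (-0.19 to -0.13) lists kept their sign under each scaling and each library left out. With 3 libraries a group, differences under the interval half-widths given for each gene could not be told from 0.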
